A study of Saccharomyces cerevisiae with 35 samples.

Results

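Budding yeast (Saccharomyces cerevisiae) cells called fpr1 deletion were compared between 40 to 60 min after rapamycin and the untreated culture. The members were all cells that the authors' table assigns to the fpr1 genotype in the intervals 40 to 50, 50 to 60, -20 to -10 and -10 to 0 min: 5195 cells, of 10818 deletion cells and 173347 cells in all. The late intervals held 2830 of them and the untreated intervals 2365. FPR1 (YNL135C), on chromosome XIV of build R64 (chrXIV:371882-372226, minus strand), encodes the protein that rapamycin has to bind before it can inhibit TORC1, the kinase complex that ties growth to nutrients. In wild-type yeast that inhibition shuts down ribosomal protein and ribosome biogenesis genes and turns on genes for scavenging poor nitrogen sources, a group held down in rich medium by nitrogen catabolite repression (NCR). A strain without FPR1 is the standard control for effects of rapamycin that do not run through this complex.

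The late deletion cells came from a culture that had received 200 ng/mL rapamycin 40 to 60 min earlier; the untreated deletion cells came from the same culture at -20 to 0 min, with 0 ng/mL. Deletion strains carry codes A to F (6 strains) and were grown together with wild-type strains of the same FY4/5 background in one stirred flask of rich medium (YPD) at 30 °C. Wild-type and deletion cells of a library therefore shared the flask, the drug, the droplets and the sequencing run, and the deletion was called by the authors for each cell. There were 2 such cultures, each sampled in successive 10 min intervals, so that each side of the comparison holds 4 libraries. No culture without drug was followed over the same time, so that the drug and the time that passed cannot be told apart.

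The single-cell libraries count the 3' ends of polyadenylated RNA with unique molecular identifiers (UMIs, each standing for 1 captured molecule). UMIs of the deletion cells were summed in each library, and these 8 sums, not the cells, were the replicates. Late sums held 2763714 to 5191196 UMIs from 601 to 783 cells, and untreated sums 1501368 to 3239210 UMIs from 460 to 787 cells. In culture 1, deletion cells were 17.0% and 30.6% of all cells at 40 to 50 and 50 to 60 min, against 4.22% and 4.25% before the drug; in culture 2 they were 5.52% and 5.06%, against 5.43% and 6.01%. The median UMIs per deletion cell were 5999 and 6234 late against 2334 and 3164 untreated in culture 1, but 3670 and 3246 late against 3795 and 3850 untreated in culture 2. A barcode also used in another library was found for 218 of the 5195 cells, 10 of them as deletion cells of another of the 8 libraries. Levels below are CPM (UMIs of a gene scaled to a common total per sum) after TMM scaling, which aligns the bulk of genes between sums, unless another scale is named. In bulk sums of this kind, fewer cells making an RNA and less RNA per cell cannot be told apart, except where values per cell are given.

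FPR1 RNA was present in cells called deletion, and there was more of it late. Within the same library it stood at 4.57% and 3.18% of the wild-type level at 40 to 50 and 50 to 60 min in culture 1 and at 3.33% and 4.10% in culture 2. In untreated libraries it stood at 2.87% and 1.60% (-20 to -10 and -10 to 0 min) in culture 1 and at 1.25% and 2.11% in culture 2. All 4 late values were above all 4 untreated ones, by 1.84 percentage points on average (two-sided exact permutation test over libraries, p = 0.0286, the smallest that 4 against 4 can give, and 0.0357 adjusted over 5 measures). This test treats the 8 libraries as independent, although they come from 2 cultures. On the sums, FPR1 was at 52.3 ± 9.43 CPM late and 21.0 ± 7.46 CPM untreated (SD, n = 4 each), a log2 change of 1.37 (SE 0.22; adjusted p = 0.00143 by edgeR's quasi-likelihood test). At least 1 FPR1 UMI was found in 12.9% to 16.6% of late deletion cells and in 5.00% to 8.10% of untreated ones, and in 85.1% to 97.7% of wild-type cells. After thinning each cell to 1000 UMIs the shares were 4.17% to 7.50% late and 1.17% to 3.24% untreated. The labels do not say how much of the gene the deletion removes, so the level is a guide to wild-type RNA among deletion cells and not a proof of its source.

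GAP1, MEP2, DAL5, SNZ1 and ARG4, 5 genes that wild-type cells turned on, stood in late libraries at between 2.68% and 5.91% of wild type, beside 3.18% to 4.57% for FPR1. In late libraries (40 to 50 and 50 to 60 min of culture 1, then of culture 2), GAP1, the general amino acid permease, was at 5.30%, 3.29%, 4.05% and 5.20% of the wild-type level. MEP2, an ammonium permease, was at 5.45%, 3.95%, 3.05% and 4.93%, and DAL5, the allantoate permease, at 5.91%, 3.31%, 3.94% and 4.82%. SNZ1, which takes part in vitamin B6 synthesis, was at 4.64%, 3.01%, 2.68% and 3.93%, and ARG4, the argininosuccinate lyase of arginine synthesis, at 5.17%, 3.97%, 4.65% and 4.16%. Unlike the other genes here, ARG4 was named because its rise was not called after the FPR1-guided subtraction described below. Its nearness to FPR1 therefore partly follows from that choice. A deletion sum to which wild-type RNA was added in the proportion given by FPR1 would hold 85.8% of the late GAP1 UMIs counted, 87.1% of those of MEP2, 84.7% of those of DAL5 and of ARG4, and 105% of those of SNZ1. The same proportion would give 2.78% of the late HXK1 UMIs and 1.37% of those of BTN2, which are described further on.

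**Figure D1:**
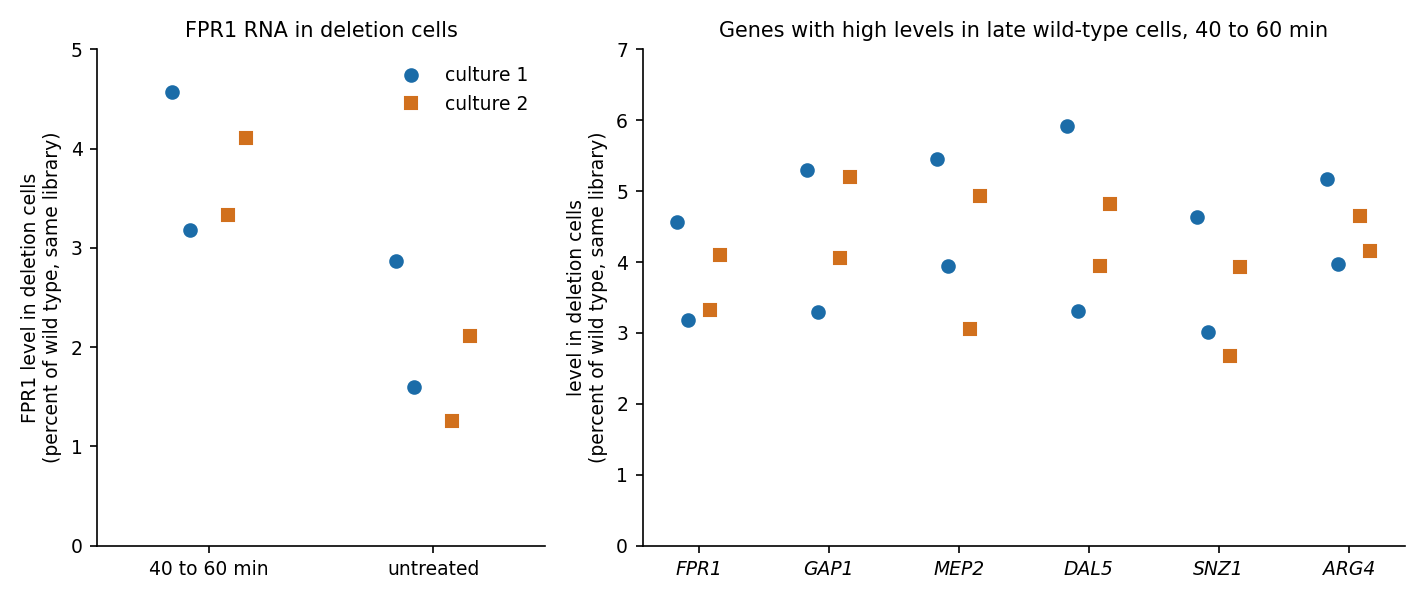
Left, the FPR1 level in deletion cells as a percentage of the level in wild-type cells of the same library, late and untreated, 1 point a library; the 4 late points lie at 3.18% to 4.57% and the 4 untreated ones at 1.25% to 2.87%. Right, the same percentage in the 4 late libraries for FPR1 and for 5 genes that late wild-type cells express highly; every point lies between 2.68% and 5.91%. ARG4 was picked as a rise not called after the FPR1-guided subtraction.

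Few of the late deletion cells held a large part of the RNA of these genes, though most of it lay in the other cells. Cells with 3 or more FPR1 UMIs were 62 (4.29%) of the late deletion cells of culture 1 and 34 (2.46%) of those of culture 2, and they held 39.8% and 31.3% of the GAP1 UMIs. They held 33.2% and 36.2% of those of MEP2 and 31.4% and 36.4% of those of ARG4. The median share of their UMIs in the 138 ribosomal protein genes was 20.6% in culture 1 and 15.8% in culture 2, against 33.1% and 29.7% in late deletion cells with no FPR1 UMI. Cells with no FPR1 UMI were 85.3% and 84.6% of the late deletion cells and held 32.3% and 48.6% of the GAP1 UMIs, but 77.2% and 88.5% of those of HXK1 and 86.1% and 81.6% of those of BTN2. In late wild-type cells the median ribosomal protein share was 2.97% to 4.76%; of the late deletion cells, 34 and 32 in culture 1 and 9 and 9 in culture 2 lay below the 95th percentile of wild-type cells in their library. At least 1 FPR1 UMI was found in 24 and 25 of those cells in culture 1, and in 6 and 7 in culture 2. Whether such cells are mixed droplets, wrongly called cells or deletion cells with another state was not tested.

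The deletion sums changed between untreated and late at 1035 of 5168 genes tested (20.0%), of which 450 rose (8.71%) and 585 fell (11.3%; edgeR quasi-likelihood, Benjamini-Hochberg adjusted p under 0.05). A rise of at least 2-fold was called for 95 genes (1.84%) and a fall of that size for 6 (0.116%). In wild-type sums of the same libraries 4663 of 5660 genes were called (82.4%; 41.4% higher, 41.0% lower), and the change itself differed between deletion and wild type at 3518 of 5500 genes (64.0%; higher in deletion at 33.2%, lower at 30.8%). Successive intervals of a culture are not independent cultures: with the 2 late and the 2 untreated sums of each culture added together (2 against 2), 10 genes were called in deletion cells, 9 of them rises, and 921 had an unadjusted p under 0.05. Of the 37 genes named here, GCV2, BTN2, GAP1, ARG4, MEP2, DAL5 and SNZ1 were among those 10. A fit with culture as a block called 1617 (31.3%), 753 higher (14.6%) and 864 lower (16.7%), and one with the -10 to 0 min interval alone as the baseline 272. When the library of culture 2 from -20 to -10 min was left out, the count was 641.

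Once wild-type RNA in the proportion given by FPR1 had been subtracted from each deletion sum, 624 of 5124 genes were called (12.2%; 267 higher, 5.21%, and 357 lower, 6.97%). Of the calls made before, 604 (58.4%) were made again in the same direction: 259 of the 450 rises and 345 of the 585 falls. With the deletion cells that held any FPR1 UMI left out instead, 731 of 5088 genes were called (14.4%; 5.92% higher and 8.45% lower), and 703 of these were among the 1035. Among genes called with a mean of at least 20 CPM, no overlap between late and untreated sums and the same direction in both cultures (780 genes), 499 were also called after the subtraction. The genes described next are the 12 largest rises and 12 largest falls of those, beside the 5 largest rises and 5 largest falls that were not called after it.

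The largest rise kept after the subtraction was in HXK1 (YFR053C), hexokinase 1, an isoenzyme made when glucose is scarce. It was at 43.6 and 48.2 CPM late in culture 1 and at 67.4 and 94.7 CPM late in culture 2, against 6.55 and 12.5 CPM untreated in culture 1 and 11.7 and 18.6 CPM untreated in culture 2. The late sums did not overlap the untreated ones, with the late sums above, as at 9.97% of all genes tested. The log2 change was 2.29 (SE 0.33; edgeR adjusted p = 0.00166), 2.33 after the subtraction, and 1.77 (SE 0.32) in wild-type cells. The difference between genotypes was 0.44 (SE 0.57, edgeR adjusted p = 0.521) and was not called. HXK1 was higher late in 12 of 12 pairs of sums by strain and culture, at 28.4 to 140 CPM of library totals late against 3.71 to 25.3 untreated. From -20 to 60 min its level of library totals ran 5.99, 11.1, 6.35, 19.5, 17.0, 36.0, 40.8 and 46.0 CPM in culture 1 and 11.4, 17.9, 14.0, 21.5, 50.0, 75.2, 81.4 and 114 CPM in culture 2. Deletion cells of both cultures thus held their highest level in the last interval. Wild-type cells held theirs at 10 to 20 min, at 268 and 266 CPM of totals. At 50 to 60 min they were at 27.3 and 81.1 CPM.

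A minority of deletion cells held much of the HXK1 RNA in culture 2. These were cells whose share of UMIs in the 30 genes of the general stress list, which does not hold HXK1, was above the 99th percentile of untreated wild-type cells of the same culture; the class was cut from a score after the data had been seen and is a range, not a cell type. In culture 2 it held 17.3% and 16.6% of late deletion cells (exact 95% intervals 14.4% to 20.6% and 14.1% to 19.4%) against 6.86% and 9.31% of untreated ones, and these cells had 52.4% and 54.4% of the HXK1 UMIs late and 40.5% and 56.5% untreated. In culture 1 it held 4.14% and 4.69% late against 1.12% and 1.30% untreated, with 10.2% and 14.6% of the HXK1 UMIs late. Its late cells in culture 1 had a median ribosomal protein share of 6.15% and 22.1%, against 32.45% and 33.0% in the other deletion cells. In culture 2 the late medians were 18.05% and 18.4%, against 31.3% and 30.9%. Of late wild-type cells of culture 1, 55.15% and 55.9% passed the same cut. Whether mixed or wrongly called cells add to the class was not tested. Among the remaining deletion cells HXK1 stood at 37.1, 40.3, 43.6 and 58.3 CPM of totals late (culture 1, then culture 2) and at 5.37, 9.42, 7.08 and 8.25 CPM untreated, again without overlap. Within 20% of the cut lay 37, 38, 80 and 101 late cells, against 9, 9, 60 and 39 untreated ones.

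The other 11 kept rises had log2 changes of 1.08 to 1.46. GCV2 (YMR189W), the P subunit of the glycine cleavage complex, was at 203 and 211 CPM late in culture 1 and at 256 and 250 CPM late in culture 2, against 91.6 and 89.4 CPM untreated in culture 1 and 89.6 and 101 CPM untreated in culture 2. Its log2 change was 1.31 (SE 0.10; edgeR adjusted p = 2.74e-05) and 1.07 after the subtraction, with no overlap. LEU4, which opens leucine synthesis, averaged 132 ± 12.9 CPM late and 61.9 ± 6.45 CPM untreated (SD, n = 4 each), a log2 change of 1.08 (SE 0.11; edgeR adjusted p = 0.000133), and PYC1, a pyruvate carboxylase, averaged 96.7 ± 6.46 CPM late and 36.2 ± 8.07 CPM untreated, a log2 change of 1.38 (SE 0.14; edgeR adjusted p = 0.000133). The FPR1 proportion would give 49.2% of the late PYC1 UMIs and 29.0% of those of LEU4, and the log2 changes after the subtraction were 0.53 and 0.70. GSY2, a glycogen synthase, changed by 1.16 on the log2 scale, STF1, a regulator of the mitochondrial ATP synthase inhibitor, by 1.10, and PBI2, an inhibitor of vacuolar proteinase B, by 1.42. DIP5, a permease for acidic amino acids, changed by 1.28 and EGO2, of the vacuolar complex that links amino acids to TORC1, by 1.12. Those rises, too, passed the test before and after the subtraction. EGO2 and STF1 stepped up in culture 2 between 10 to 20 and 20 to 30 min, like the genes described next. In CPM of totals, deletion cells went from 14.91 to 43 in EGO2 and from 45.01 to 85.23 in STF1. Wild-type cells went from 29.23 to 93.34 and from 186.4 to 506.5. In culture 1 the deletion values were 25.95 and 30.48, and 40.87 and 48.77 CPM.

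CGR1, COX17 and COA4 differed between the cultures. CGR1 (YGL029W), a nucleolar protein of large ribosomal subunit processing, was at 40.9 and 50.3 CPM late against 30.5 and 33.5 CPM untreated in culture 1, and at 56.3 and 58.0 CPM late against 10.7 and 8.49 CPM untreated in culture 2. The log2 change was 1.46 (SE 0.37; edgeR adjusted p = 0.0258), but it was 0.50 in culture 1 and 2.51 in culture 2, and the difference between cultures was called. Taken in culture 1 alone the change did not pass the test. Wild-type cells were also low in CGR1 in untreated culture 2, at 12.5 and 10.8 CPM of totals, against 28.6 and 29.7 CPM in untreated culture 1, and they changed the other way late (log2 -3.91; difference deletion minus wild type 5.29, SE 0.65, edgeR adjusted p = 5.54e-06). COX17, the copper chaperone of cytochrome c oxidase, changed by 0.74 in culture 1 and 2.16 in culture 2 on the log2 scale. COA4, an assembly factor of the same enzyme, changed by 0.76 and 1.87. In culture 2, deletion cells stepped up between 10 to 20 and 20 to 30 min, in CPM of totals. CGR1 went from 9.388 to 61.14, COX17 from 11.04 to 84.45 and COA4 from 11.87 to 65.54. Wild-type cells went from 0.1536 to 1.547, 12.83 to 107.5 and 26.73 to 141.3. In culture 1 the deletion values were 26.3 and 48.77, 25.95 and 32.66, and 14.93 and 27 CPM. Untreated and late libraries of culture 2 lie on opposite sides of this step, whose cause was not tested.

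**Figure D2:**
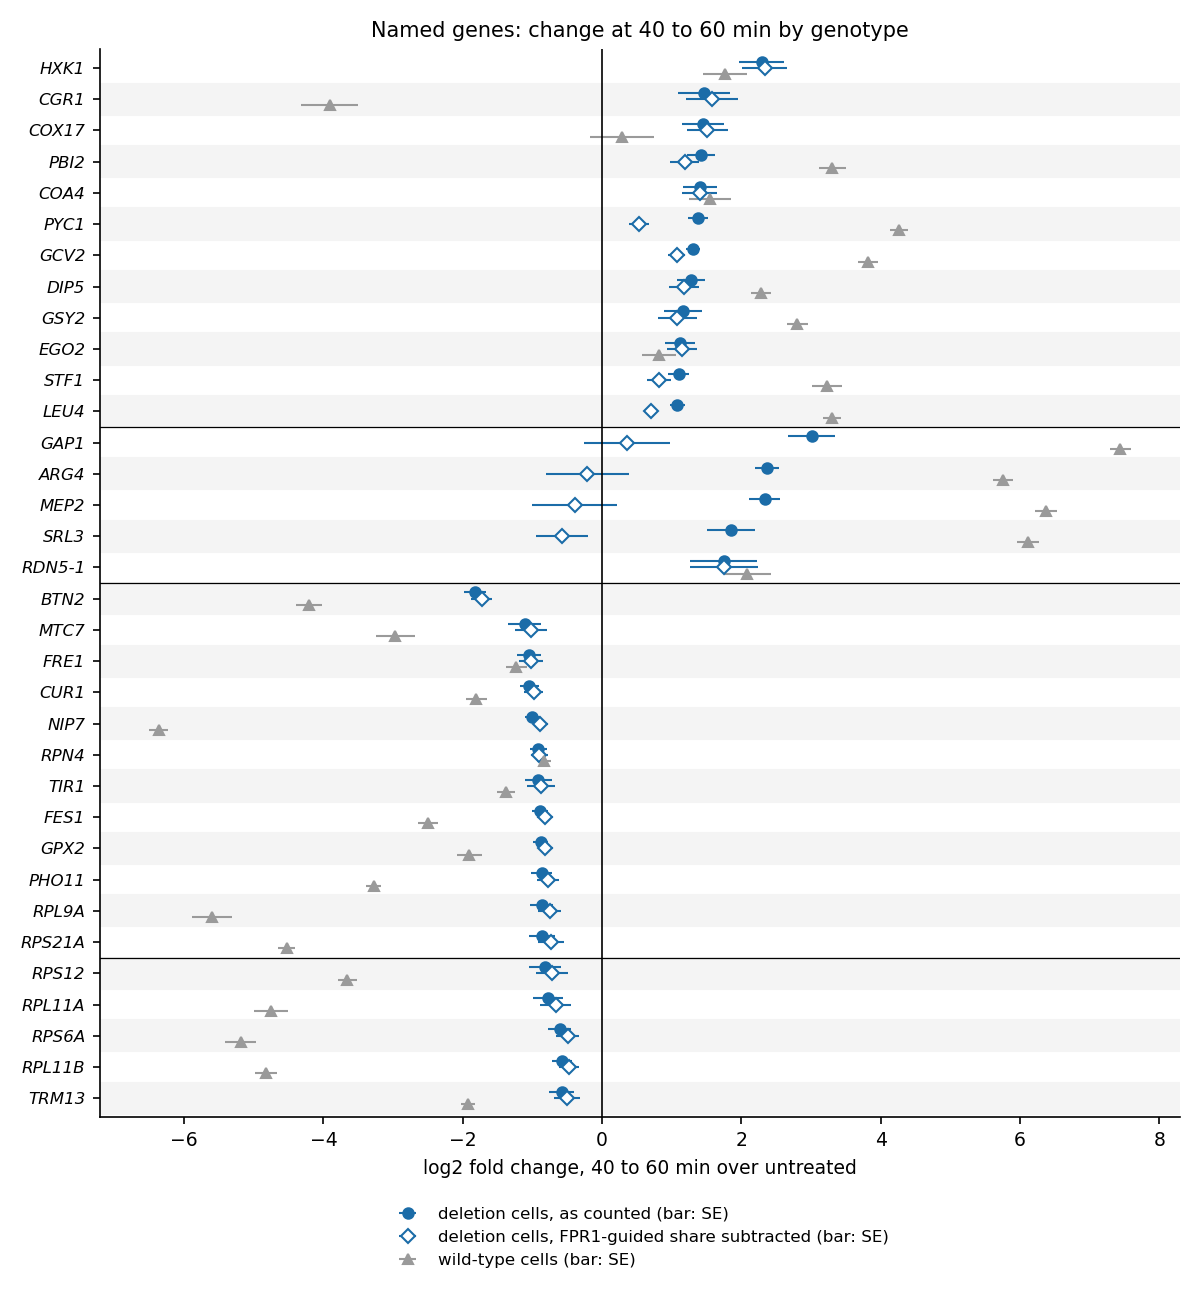
Log2 fold change of 40 to 60 min over untreated for the genes named by the rule, in deletion cells as counted, in deletion cells after subtracting the FPR1-guided wild-type share, and in wild-type cells (points with SE; 4 late and 4 untreated sums each). Panels from the top are rises kept after the subtraction (HXK1 at 2.29 and 2.33), rises not called after it (GAP1 at 3.01 and 0.36), falls kept (BTN2 at -1.82 and -1.73) and falls not called after it.

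The largest fall was in BTN2 (YGR142W), which sorts misfolded proteins and belongs to the targets of the heat shock factor Hsf1. It was at 28.3 and 30.9 CPM late in culture 1 and at 42.8 and 42.3 CPM late in culture 2, against 143 and 134 CPM untreated in culture 1 and 106 and 127 CPM untreated in culture 2. The groups did not overlap, with the late sums below, as at 13.6% of all genes tested, and the fall was larger in culture 1 (log2 -2.21) than in culture 2 (-1.44; the difference was called). The log2 change over both was -1.82 (SE 0.15; edgeR adjusted p = 4.21e-05), and it was -1.73 after the subtraction and -4.21 in wild-type cells. CUR1, the sorting factor most like BTN2, averaged 36.4 ± 6.24 CPM late and 74.7 ± 6.56 CPM untreated (SD, n = 4 each), a log2 change of -1.04 (SE 0.13; edgeR adjusted p = 0.000476). FES1, a nucleotide exchange factor of Hsp70, averaged 81.1 ± 11.99 CPM late and 151 ± 12.4 CPM untreated, a log2 change of -0.90 (SE 0.11), and RPN4, the activator of proteasome genes, averaged 48.4 ± 8.55 CPM late and 91.2 ± 2.47 CPM untreated, a log2 change of -0.92 (SE 0.12). BTN2, CUR1, FES1 and RPN4 were each lower late in all 12 pairs of sums by strain and culture. These are falls in share. With sums scaled by the number of cells, 3584 of 5168 genes were called higher and 1 lower, a gene of the heat shock list.

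Their upstream regions are shown because Hsf1 binds inverted repeats of GAA. Within the 300 bases before the annotated start codon, both strands were searched for GAANNTTC and TTCNNGAA, each of which is its own reverse complement. The windows are from RefSeq build R64, are written 5' to 3' along the gene's strand, hold no other annotated coding gene, and have the matches in capitals.
BTN2 (chrVII:772364-772393, plus strand): atattttcttcTTCTTGAAagaaatatcag
CUR1 (chrXVI:843063-843092, plus strand): tagaaaaaaggGAACTTTCctactcaaaag
FES1 (chrII:444844-444873, minus strand): cttggactgGAATCTTCTGGAAgttttttg
RPN4 (chrIV:416709-416738, minus strand): tcaaaagttTTCTAGAATTTTCaagcaatc
FES1 and RPN4 each hold 2 matches that overlap. Such a match was present in 6 of the 12 kept falls (the others were NIP7 and RPL9A) and in 2 of the 12 kept rises. Among named genes not called after the subtraction, it was present in 2 of 4 rises with a window and in 1 of 5 falls. Among regions of the same length before coding genes, 1345 of 6001 held it (22.4%). The stress response element (AGGGG or CCCCT) was searched too. It was present in 5 of 12 kept rises and 1 of 12 kept falls, beside 22.2% of the 6001 regions. Of genes not called after the subtraction, 1 of 4 rises and 1 of 5 falls held it. The proteasome control element (GGTGGCAAA or TTTGCCACC), also searched, was present in 0 of these genes and in 1.2% of the regions. A match is a description of letters and not a site.

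Other kept falls came from several functions. They are falls in share too, and none of them was called lower with sums scaled by the number of cells. MTC7 (YEL033W) was at 508, 393, 763 and 449 CPM late (culture 1, then culture 2), against 1139, 766, 1353 and 1302 CPM untreated. The highest late value lay just below the lowest untreated one. FRE1, a surface ferric and cupric reductase, fell by 1.05 on the log2 scale (SE 0.17) and NIP7, of large ribosomal subunit assembly, by 1.00 (SE 0.10). GPX2, a glutathione peroxidase, fell by 0.88, PHO11, an acid phosphatase, by 0.87, and TIR1, a cell wall mannoprotein, by 0.92. TIR1 was nevertheless higher late in 2 of 12 pairs of sums by strain and culture. PHO11 has a near-identical copy, PHO12, and reads of such copies may be split in counting.

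**Figure D3:**
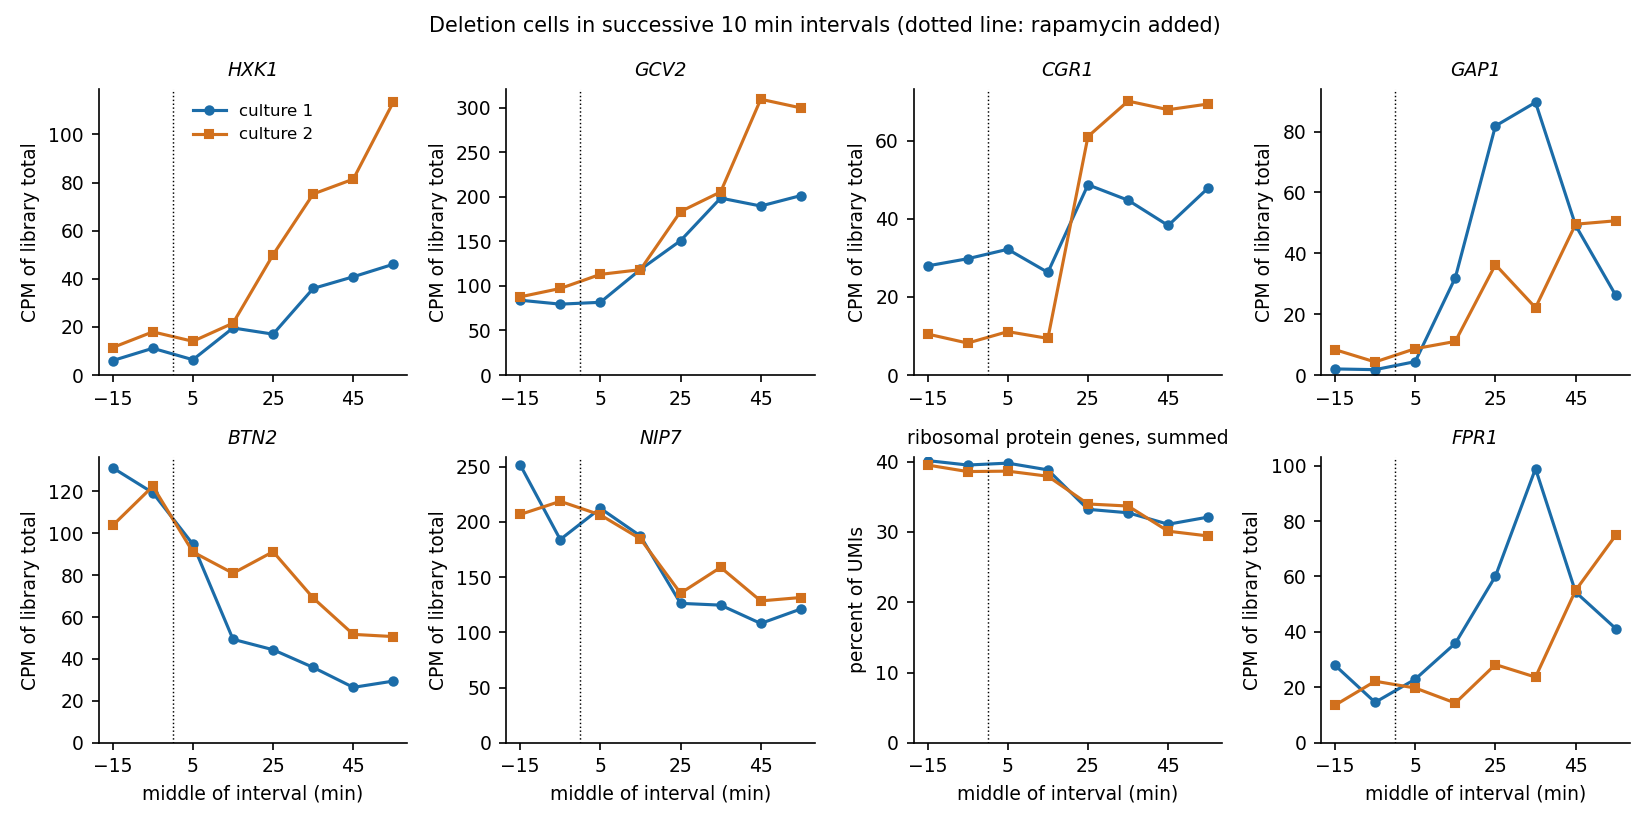
Levels in deletion cells over the 8 successive 10 min intervals of both cultures, in CPM of library totals (ribosomal protein genes summed, in percent of UMIs), with a line at the addition of rapamycin. HXK1 and GCV2 were highest after 40 min, BTN2 and the ribosomal protein sum lowest; GAP1 and FPR1 in culture 1 were highest at 30 to 40 min, at 89.6 and 98.9 CPM.

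Ribosomal protein genes fell together in share. Of 138 tested, 99 fell and 0 rose, with a median log2 change of -0.54, beside 0.03 over all genes; after the subtraction 77 fell and 0 rose, with a median of -0.43, while with sums scaled by the number of cells 10 rose and 0 fell and the median was 0.20, under that over all genes, 0.73. RPL9A averaged 1736 ± 458 CPM late and 3164 ± 335 CPM untreated (SD, n = 4 each), a log2 change of -0.87 (SE 0.17; edgeR adjusted p = 0.00441). RPS21A changed by -0.86, more in culture 2 (-1.21) than in culture 1 (-0.61), and RPS18B by -0.84, with -0.74 in culture 1 and -0.93 in culture 2. Paralogs differed as counted: RPL9B changed by -0.42 and RPS21B by -0.24, which did not pass the test, but near-identical copies share reads. RPS12, RPL11A, RPS6A and RPL11B changed by -0.82, -0.78, -0.61 and -0.58; after the subtraction the values were -0.72, -0.67, -0.49 and -0.47, at edgeR adjusted p-values of 0.0508 to 0.0745 and so just past the threshold. TRM13, a tRNA methyltransferase, changed by -0.58 before and had a value of -0.50 after it (adjusted p = 0.0964). In wild-type cells 136 of the 138 fell, with a median of -4.47, and the change differed between genotypes at 136, less negative in deletion cells at each.

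Per cell, the ribosomal protein share moved in the bulk of deletion cells. The median cell of a late library had 32.3% and 32.9% of its UMIs in these genes in culture 1 and 29.7% and 29.3% in culture 2, against 40.9% and 40.4% untreated in culture 1 and 40.1% and 39.2% untreated in culture 2. The mean over libraries was 31.0% ± 1.81 late and 40.2% ± 0.72 untreated (SD, n = 4 each). The two-sided exact permutation test gave p = 0.0286, the smallest for 4 against 4 libraries, and 0.0357 adjusted over 5 measures. It does not take into account that the libraries come from shared cultures. The difference was -8.06 percentage points in culture 1 and -10.2 in culture 2, and -8.94 over both with each cell thinned to 1000 UMIs. Over the 12 pairs of sums by strain and culture the strain medians were 28.7% to 32.9% late and 37.6% to 41.1% untreated, and did not overlap. The median number of genes detected per cell was higher late by 312 (adjusted p = 0.0357 in the same exact test), but by 23.2 after thinning, which did not pass.

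**Figure D4:**
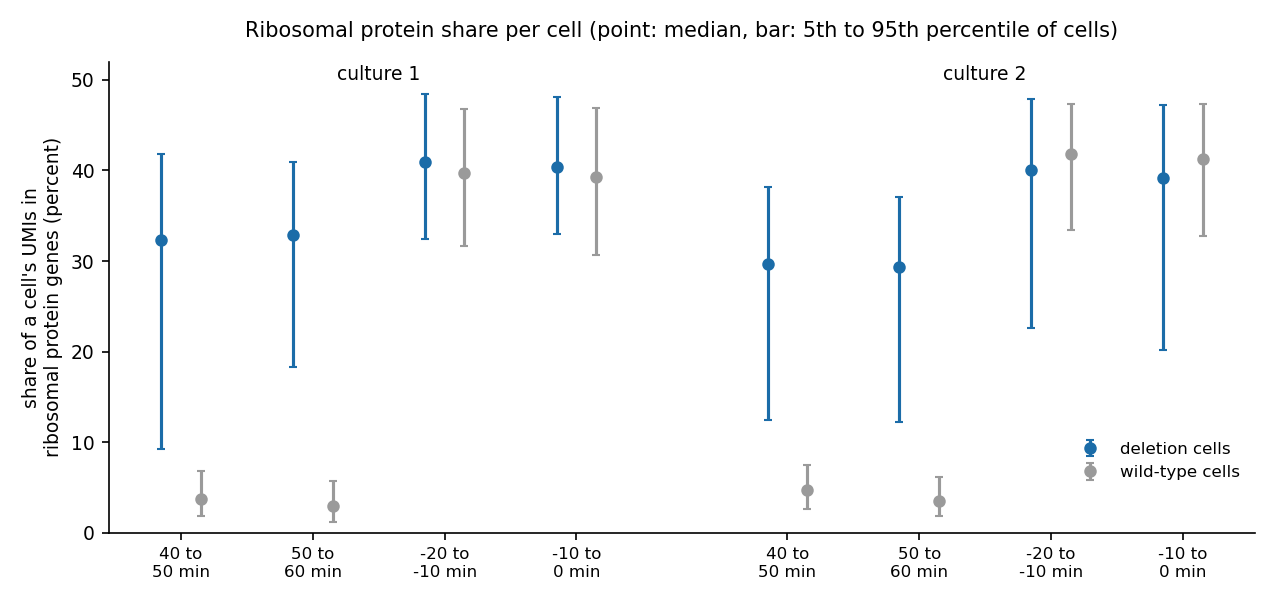
Share of a cell's UMIs in the 138 ribosomal protein genes, by library and genotype (point, median over cells; bar, 5th to 95th percentile of cells). Late deletion medians lie at 29.3% to 32.9% and untreated ones at 39.2% to 40.9%; late wild-type medians lie at 2.97% to 4.76%.

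Of 62 ribosome biogenesis genes tested, 16 fell and 0 rose, with a median log2 change of -0.16, beside 11.3% lower and 8.71% higher over all genes tested; after the subtraction 8 fell, and with sums scaled by the number of cells 36 rose and the median was 0.60, below that of all genes. KRR1, a small-subunit processing factor, had a log2 change of -0.63 (SE 0.12; edgeR adjusted p = 0.00327) and RPF2, of large-subunit assembly, -0.59; both were called after the subtraction. In wild-type cells all 62 fell, with a median of -4.89. Histone genes fell at 5 of 8 tested, with HTA2, a histone H2A, at -0.48, and at 4 of 8 after the subtraction, though 2 rose and 0 fell with sums scaled by the number of cells.

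The rises of nitrogen catabolite repression genes were not called after the subtraction. Of all genes tested, 8.71% rose and 11.3% fell, and 5.21% and 6.97% did so after the subtraction. Of 21 NCR genes tested, 9 rose and 0 fell, with a median log2 change of 0.52; after the subtraction 0 rose and 1 fell by edgeR, 0 were higher and 1 was lower at an unadjusted p under 0.05, and the median was 0.08. GAP1 was at 52.5, 27.4, 41.0 and 42.3 CPM late (culture 1, then culture 2) against 2.18, 1.97, 8.52 and 4.45 CPM untreated, a log2 change of 3.01 (SE 0.34; edgeR adjusted p = 0.000476), against 7.44 in wild-type cells. The untreated value rests on 44 UMIs in all 4 sums. After the subtraction the log2 change of GAP1 was 0.36 and that of MEP2 -0.39, and neither passed the test. SRL3, another rise not called after it, had a log2 change of 1.85 before and -0.57 after it. The fold of RDN5-1, a ribosomal RNA gene with near-identical copies, was the same before (1.75; edgeR adjusted p = 0.0445) and after it (1.75), although the call was lost (adjusted p = 0.061); the FPR1 proportion would give 7.59% of its late UMIs. With the FPR1-positive cells left out, 5 NCR genes still rose. GAP1 then changed by 1.90, MEP2 by 1.43, DAL5 by 1.27 and ARG4 by 1.42, and each was called. SNZ1 changed by 1.53 and was not called. In cells with no FPR1 UMI, GAP1 was at 14.1 and 29.3 CPM of totals late (culture 1, then culture 2), against 2.01 and 6.81 untreated. Among 33 targets of the amino acid regulator Gcn4 tested, 7 rose and 7 fell; after the subtraction 1 rose, LEU4, and 5 fell, among them LYS20, the homocitrate synthase of lysine synthesis, at -0.76. ARG4 changed by 2.36 before and -0.21 after it. With sums scaled by the number of cells, 23 of the 33 Gcn4 targets rose and 0 fell.

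Stress and carbon genes kept part of their rises. The counts below stand beside 8.71% of all genes tested that rose and 11.3% that fell, and 5.21% and 6.97% after the subtraction. Of 26 general stress genes tested, 6 rose and 0 fell, with a median log2 change of 0.37; 3 were called after the subtraction: GSY2, GPH1, the glycogen phosphorylase (1.43 before it), and GLK1, glucokinase (0.91). The class of stress-high cells described above was larger late than untreated in each culture, and its part in these rises was not tested. Of 18 heat shock genes tested, 4 fell, BTN2, CUR1, FES1 and YDJ1 (-0.46), and 1 rose, SSA1, a cytosolic Hsp70 (0.65); the same 5 were called after the subtraction. SSA1 has the near-identical copy SSA2, which changed by -0.16 and was not called. Of 5 hexose transporters tested, 2 rose and 0 fell, and the median log2 change of the list was 0.015. The 2 were HXT4 and HXT7, with high affinity, which rose by 1.73 and 1.85. They were called after the subtraction as well (1.78 and 1.90), at means of 9.23 and 15.7 CPM late against 2.89 and 4.72 CPM untreated. HXT7 has near-identical copies. Of 17 genes of glycolysis and fermentation tested, 5 fell and 0 rose, the largest being ENO2, an enolase, at -0.51. After the subtraction 1 was called, a fall, which is too few to describe the list. On library totals 0 of the 17 were called. With sums scaled by the number of cells 4 of them rose and 0 fell. On that scale 7 of the 18 heat shock genes rose and 1 fell.

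One-carbon and glycine cleavage genes rose at 5 of 9 tested: GCV2, GCV1 (1.00), SHM2, the cytosolic serine hydroxymethyltransferase (0.66), ADE3 (0.30) and GCV3 (0.29). After the subtraction 4 were called, all but ADE3. Counts in this paragraph stand beside 8.71% of all genes tested that rose and 11.3% that fell, and 5.21% and 6.97% after the subtraction. The iron regulon had 4 of 19 genes lower and 0 higher, FRE1, ARN2, FET3, a multicopper oxidase of iron uptake (-0.66), and ISU2, a scaffold for iron-sulfur clusters. After the subtraction 3 were called. On library totals 1 iron gene was lower, and with sums scaled by the number of cells 7 rose and 0 fell. Of 13 drug efflux genes under Pdr1 and Pdr3, 1 rose, SNQ2 (0.32), against 8.71% of all genes tested, so that 1 call says nothing about the list. Of 11 prolyl isomerases other than FPR1, FPR4 (-0.47) and CPR1 (-0.26) fell and none rose by edgeR. Only FPR4 was called after the subtraction. With sums scaled by the number of cells, 4 of the 11 rose and 0 fell. In the cell cycle lists CLN1, a G1 cyclin, changed by 0.92 and POL1, of DNA polymerase alpha, by 0.61 (2 of 13 G1/S genes), and CLB1, a mitotic cyclin, by 0.44 (1 of 10 G2/M genes), counts read against the same 8.71% and too few to describe either list. Where 0 calls in 1 direction are given for a list as counted, DESeq2 made 0 calls there too, and 0 genes had an unadjusted p under 0.05 in that direction by edgeR, apart from 1 drug efflux gene that was lower.

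**Figure D5:**
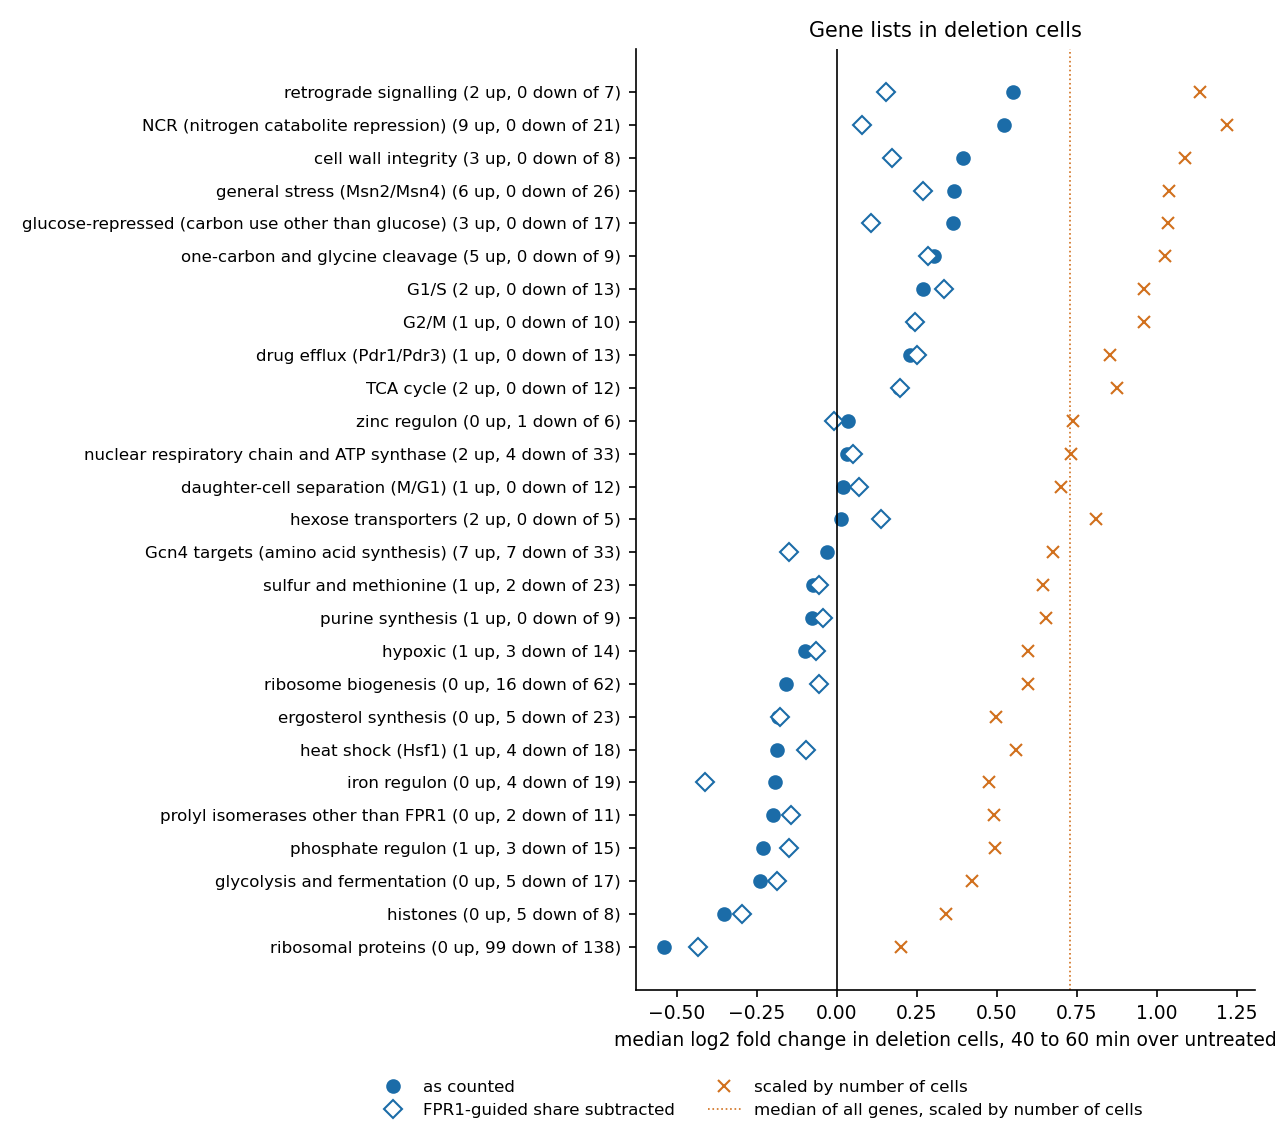
Median log2 fold change of each gene list in deletion cells (lists with at least 5 genes tested), as counted, after the FPR1-guided subtraction, and with sums scaled by the number of cells; beside each name, the number of genes called higher and lower of those tested. Ribosomal proteins are lowest on each scale, at -0.54, -0.43 and 0.20; the dotted line marks the median of all genes when scaled by cells, 0.73.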

How the data were processed

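The authors deposited raw UMI counts, by cell and gene, from 10x Genomics 3' (v3.1) libraries per the labels' protocols. The submitters' processing notes name bcl2fastq, kallisto 0.46.1, bustools 0.39.3 and build sacCer3 (the same assembly as R64, used here for positions); neither they nor the labels state the cell filter or how genotypes were assigned. No cell had under 500 UMIs, and doublets were not called. Of 5843 features, 5812 matched RefSeq locus tags.

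Counts were summed per library over deletion or wild-type cells, filtered (filterByExpr), TMM-scaled and tested with edgeR 4.0.16 (robust quasi-likelihood; R 4.3.3) on 8 sums (6 residual degrees of freedom, biological coefficient of variation 13.6%), the genotype difference on 16. Adjusted p-values are Benjamini-Hochberg over all genes tested. For the subtraction, the FPR1 level in deletion over wild-type cells of a library gave the share; wild-type counts times it were removed from the deletion sum, set to 0 where negative and rounded. Values per library were compared by exact permutation, which treats libraries of the same culture as independent. Intervals are Clopper-Pearson and cover counting error only.

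On simulated counts of 5189 genes for the deletion comparison, 100% of genes changed by 1.5 on the log2 scale were called, 80% of rises and 82% of falls of 0.75, and 0.16% of unchanged genes. The simulated sums were independent, with the same dispersion for all genes and no culture effect. These rates therefore do not measure false calls among real sums that share a culture. The replicate number of the labels marks a culture, so same-numbered sums come from 1 culture; their deviations from group means correlated across 5168 genes at 0.362. The labels do not say whether the cultures were started from separate pools.

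Genes were named by a rule: FPR1, GAP1, MEP2, DAL5 and SNZ1, then called genes of at least 20 CPM, without overlap and alike in both cultures, the 12 largest rises and falls also called after the subtraction and the 5 largest of each not called after it; of each gene list, called members with large changes. RPS18B, RPL9B, RPS21B, SSA2 and PHO12 were added after their values were seen. Members, lists and alternatives were chosen with earlier results of these data known. Bulk and genotype PCR samples were not used.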

Additional observations from a re-analysis of the deposited data

Results flagged for a closer look

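The change differed between the 2 cultures for 10 of the 37 named genes (culture-by-state interaction in the 8 deletion sums, edgeR quasi-likelihood, adjusted p under 0.05), in a test added after the data had been seen. The log2 change in culture 2 minus that in culture 1 was 2.04 for CGR1, 1.47 for COX17, 1.13 for COA4 and 0.78 for BTN2. It was -0.63 for PYC1, -0.69 for FRE1, -0.41 for RPL9A, -0.61 for RPS21A, -0.60 for RPS12 and -2.13 for SRL3. CGR1 and COX17 started lower in untreated culture 2 than in untreated culture 1 in both genotypes, and SRL3 started higher there in deletion cells, at 18.9 and 15.8 CPM against 2.91 and 7.89 CPM.

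The change differed between deletion and wild type for 29 of the 37 named genes, 17 of them among the 24 kept after the subtraction. Called changes ran in opposite directions in 2: CGR1, with a difference of 5.29 on the log2 scale, and FPR1, with a difference of 1.65 (1.37 in deletion cells and -0.38 in wild-type cells). For FPR1 the direction in wild-type cells depended on the scale. In CPM of library totals, wild-type FPR1 was higher late, at 1191, 1296, 1652 and 1824 (culture 1, then culture 2). Untreated it was at 974, 915, 1083 and 1051 CPM of totals.

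Single libraries stood apart from the other 3 of their group in 3 of 84 groups of 4, where chance alone flags about 1 in 20. PBI2 was at 35.9 CPM at 40 to 50 min in culture 2, below 46.1 to 47.4 CPM in the other late sums. RPN4 was at 61.1 CPM in the same library, above 42.9 to 46.0 CPM in the others. TIR1 was at 27.0 CPM at -10 to 0 min in culture 1, below 38.2 to 40.0 CPM in the other untreated sums.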

How the results depend on the processing

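Counts of called genes within 1.5 times the 1035 were given by DESeq2 (973), RLE (1035), no filter (1019), all intervals in 1 fit (869), equal depth (718), leaving out the top 5% of cells (926) and library totals (737, 80.3% of them rises against 43.5%; the median of all genes was then 0.21). Scaling by cells gave 3585, all but 1 of them rises, since it moves the median of all genes to 0.73, and 2227 genotype differences against 3518. The culture as a replicate block, which pairs sums of the same culture, gave 1617; added intervals gave 10, the -10 to 0 min baseline 272, the FPR1-guided subtraction 624. Added after the data had been seen, culture 2 alone gave 1840, culture 1 alone 973, subtraction with the culture block 1294 and doubling the subtracted share 470. Leaving out 1 library gave 641 to 1015. Where a value moved, the cause was not tested.

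For the named genes, 765 of 918 values kept direction and call, 135 lost the call and 18 reversed. The reversals by the subtraction (then with the culture block) were ARG4 -0.21 (-0.24), MEP2 -0.39 (-0.50), SRL3 -0.57 (-0.50), DAL5 -0.20 (-0.22) and SNZ1 -5.42 (-5.46), and by the doubled share ARG4 -8.68, MEP2 -7.82, SNZ1 -7.41 and PYC1 -2.53, where sums set to 0 make the size arbitrary. Scaling by cells turned RPL11A (0.01), RPS6A (0.14), RPL11B (0.19) and TRM13 (0.16).

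With 1 library left out, the exact test cannot pass after adjustment, and the late minus untreated differences were 246 to 366 genes per cell, -9.73 to -8.54 percentage points of ribosomal protein share, 8.04 to 9.29 points of cells with an FPR1 UMI and 1.58 to 2.14 points of FPR1 level. Without the top 5% of cells the FPR1 difference was 1.74 points, and thinned cells differed by 23.2 genes; neither passed. Untreated sums of culture 1 are the shallowest and limit low genes.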

Other observations

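Counts of called genes in the remaining lists were small, and stand beside 8.71% of all genes tested that rose in deletion cells and 11.3% that fell; single calls do not describe a list. Of 10 cell wall integrity genes, 8 were tested and 3 rose, PST1 (log2 change 0.80), SED1 (0.56) and CRH1 (0.51), beside a median of 0.40 over the list; SED1 was also called after the FPR1-guided subtraction. In the retrograde list 2 of 7 rose, PYC1 and CIT1, the mitochondrial citrate synthase (0.82), and in the tricarboxylic acid cycle list 2 of 12, CIT1 and SDH1 (1.05); all 3 genes were called after the subtraction. Of 17 glucose-repressed genes tested 3 rose, HXK1, YAT1 (1.44) and MLS1, malate synthase (2.58, from means of 7.84 CPM late and 1.19 CPM untreated). Ergosterol genes fell at 5 of 23, the phosphate regulon at 3 of 15 with 1 higher, and hypoxic genes at 3 of 14 with 1 higher, COX5B (0.88). With sums scaled by the number of cells, 10 ergosterol, 7 phosphate and 6 hypoxic genes rose and 0 fell. No gene outside the heat shock list was called lower on that scale. Of 33 nuclear genes of the respiratory chain and ATP synthase 2 rose and 4 fell, of 4 mitochondrial genome genes tested COB rose (1.05), and sulfur genes had 1 of 23 higher, MET6 (0.65), and 2 lower. ADE17 (0.62) rose among 9 purine genes, ASH1 (0.54) among 12 genes of daughter-cell separation, and ZRT1 (-0.57) fell among 6 zinc genes. None of 3 thiamine and 4 biotin genes tested was called by edgeR or DESeq2, and 0 had an unadjusted p under 0.05.

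The stress-high class of culture 2 was present in all 6 deletion strains before rapamycin. Its cells had a median of 24.6% and 23.0% of UMIs in ribosomal protein genes in the untreated libraries (-20 to -10 and -10 to 0 min), against 40.7% and 40.2% in the remaining deletion cells, and a median of 2396 and 2584 UMIs against 3949 and 4119. In wild-type cells of culture 2 the same class held 83.5% and 76.1% of late cells and 0.789% and 1.32% of untreated ones. BTN2 was at 37.8 and 56.6 CPM of totals in the untreated class against 106 and 126 CPM in the rest, and GCV2 at 280 and 240 CPM against 79.5 and 88.7 CPM. In the remaining deletion cells BTN2 was at 26.6, 28.7, 54.2 and 46.6 CPM late (culture 1, then culture 2), against 131, 119, 106 and 126 CPM untreated, and GCV2 at 185, 197, 268 and 272 CPM late against 83.9, 79.4, 79.5 and 88.7 CPM untreated, without overlap.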
